A study of Mus musculus with 8 samples.

Results

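The 4 adult and the 4 embryonic libraries of a mouse small intestine series were set against each other to find the autosomal regions with a methylated-DNA peak throughout one age and in no library of the other. Peaks of all 8 lists that shared at least 1 bp were merged into 471333 regions on the 19 autosomes. An adult-specific region had a peak in all 4 adult lists and in no embryonic list, and an embryonic-specific region the reverse. There were 1909 adult-specific regions, 0.405% of all regions, and 660 embryonic-specific regions, 0.140% of all regions. The search was repeated with every list held to its 84990 highest-scoring peaks, the length of the shortest list. These lists of equal length merged into 225170 regions, of which 1441 were adult-specific (0.640%) and 504 embryonic-specific (0.224%).

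The adult side consisted of Lgr5+ intestinal stem cells (ISC) and enterocytes from males of the Lgr5EGFP-Cre-ERT line at postnatal day 60. The embryonic side consisted of intestinal epithelium at the embryonic stages E12.5 and E14.5, named for days after conception. Each of these 4 groups had 2 biological replicates, and the strain was given as mixed C57BL/6 CD1 throughout. Embryonic cells and enterocytes were sorted by the same surface markers, positive for EpCAM and negative for CD31 and CD45, and ISC were sorted for high EGFP. The labels name no marker that sets enterocytes apart from other villus epithelium, and give neither the sex of the embryos nor the number of animals behind a replicate. The transgene is stated for the adults only, so genotype and age cannot be told apart. Cell identity was not checked against marker genes, since the peaks are on mm9 and the gene table used is not, and for the same reason regions are given by position only and no sequence is shown.

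In mammals, DNA methylation sits mainly on cytosines followed by guanine, where DNA methyltransferases place and copy it and TET enzymes oxidise it. Dense methylation at promoters is commonly found with silent genes, whereas active enhancers tend to have little. The gut tube epithelium of the embryo is still multipotent, and in the adult the Lgr5+ stem cells at the crypt base renew the absorptive enterocytes and the secretory cells of the villus. In the assay an MBD protein pulled down fragments by the density of their methylated cytosines. A peak is therefore read as dense methylation relative to the rest of the same library, and gives no percent methylation. Peaks were called without a control, and other sources of tags were not tested.

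The libraries held 31438314 to 43343543 tags on the adult side and 34567645 to 55442400 on the embryonic side. Autosomal peaks numbered 163882 to 281760 per adult library and 84801 to 336963 per embryonic library, the E12.5 lists being the shortest and the E14.5 lists the longest of all. The mean share of tags in peaks was 30.6% ± 6.77 in adult and 21.2% ± 14.9 in embryonic libraries (SD, n = 4 each). With 4 libraries a side, the exact permutation test (two-sided) gave p = 0.314 for this share, 0.914 for the number of autosomal peaks, 0.286 for total tags and 0.229 for median peak length (0.419, 0.914, 0.419 and 0.419 after Benjamini-Hochberg adjustment over these 4). The smallest p this test can give is 0.0286, and it takes as exchangeable libraries that come from 2 groups on each side.

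Most regions with a peak throughout the adult epithelium also had one in part or all of the embryonic epithelium. Of the 94047 regions called in all 4 adult libraries, 24525 (26.1%) were called in all 4 embryonic libraries as well, 32066 (34.1%) in 3, 29341 (31.2%) in 2 and 6206 (6.60%) in 1. The 1909 adult-specific regions were 2.03% of the 94047. In the other direction, 24525 (75.6%) of the 32432 regions called throughout the embryonic side were called in all 4 adult libraries, 4595 (14.2%) in 3, 1783 (5.50%) in 2 and 869 (2.68%) in 1. The 660 embryonic-specific regions were 2.04% of the 32432, close to the 2.03% of the adult direction. The difference in number changed when E12.5 libraries were left out. Adult regions made up 74.3% of all side-specific regions, but 50.3% without E12.5 replicate 1, 46.1% without E12.5 replicate 2 and 9.75% against E14.5 alone. Leaving out a library loosens the rule in both directions, so counts rise by construction, and the cause of the change was not tested. These are counts of regions from lists thresholded library by library, and a missing peak means only that the caller's cutoff was not passed.

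**Figure D1:**
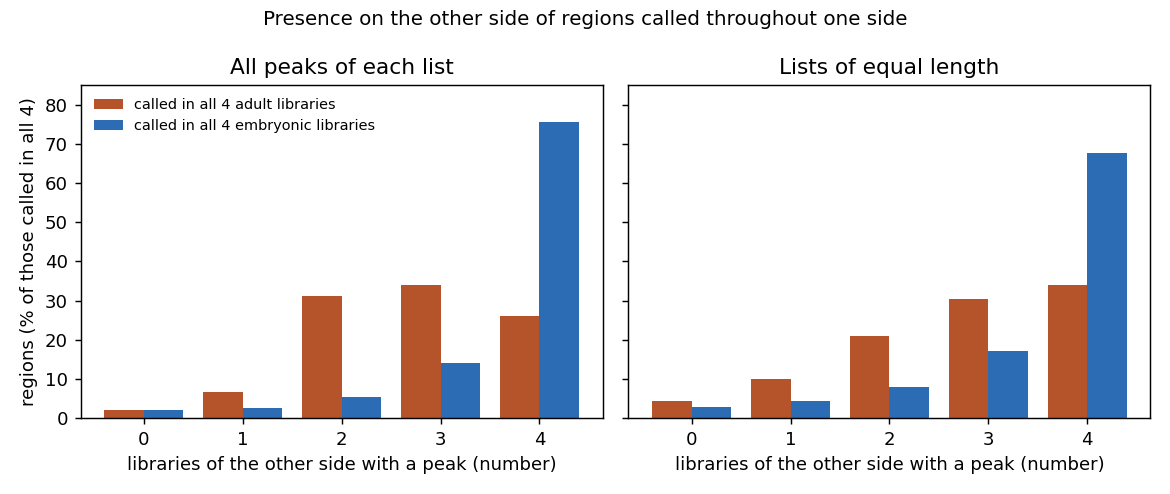
Share of regions (y axis, % of the regions called in all 4 libraries of one side) by the number of libraries of the other side with a peak (x axis), with all peaks of each list (left) and with lists of equal length (right). With all peaks, 2.03% of the adult and 2.04% of the embryonic regions had no peak on the other side, and with equal lengths 4.30% and 2.98%.

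Adult-specific membership turned mostly on E14.5, whose lists covered nearly all adult regions. Among the 94047 regions called in every adult library, 93.4% had a peak in E14.5 replicate 1 and 91.0% in E14.5 replicate 2, against 48.8% and 42.4% in the E12.5 replicates. Only 2269 (2.41%) had no E14.5 peak, and 1909 of them had no E12.5 peak either. Only 61 of the 94047 were called in both E12.5 libraries and missing from E14.5. Of the 6206 adult regions with a peak in exactly 1 embryonic library, that library was E14.5 replicate 1 in 55.1%, E14.5 replicate 2 in 40.1% and E12.5 replicate 1 or 2 in 159 and 140 regions.

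The adult lists were more alike in what they covered of the embryonic side. Of the 32432 regions called in every embryonic library, 86.2% and 94.1% had a peak in ISC replicates 1 and 2, and 86.9% and 91.4% in enterocyte replicates 1 and 2. There was no ISC peak at 1074 (3.31%) and no enterocyte peak at 1689 (5.21%). A peak in both ISC libraries and in no enterocyte library was found at 419 of them, and the reverse at 155. Where exactly 1 adult library had a peak, it was ISC replicate 2, the longest adult list, in 48.1% of 869 regions.

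Side-specific regions were short and weak for regions called throughout their side. The median length was 857 bp for adult-specific regions, against 1026 bp for the 92138 other regions called in all 4 adult libraries, and 673 bp for embryonic-specific regions, against 1130 bp for the 31772 others of that side. Part of this is fixed by the rule, since the other regions can be extended by peaks of the other side. Counting only the extent of the own side's peaks, a measure chosen after seeing the data, the medians of the others were 1009 bp and 923 bp. To rank a region by strength, its best peak was given a percentile by the caller's score in each of the 4 lists of the side, and the lowest of the 4 was taken. The median was 23.6 for adult-specific regions and 45.6 for the other regions called in all adult libraries, and on the embryonic side 22.6 and 43.5. The strongest 25% of every list of the side held 120 adult-specific regions (6.29%) against 20.3% of the others, and 28 embryonic-specific regions (4.24%) against 17.7%.

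The share of side-specific regions was highest among the weakest regions and lowest among the strongest. The regions called in all libraries of a side were put into 10 equal classes by strength. In the weakest adult class, 428 of 9404 (4.55%) were adult-specific, and in the strongest 44 of 9405 (0.468%). On the embryonic side the same classes held 154 of 3243 (4.75%) and 16 of 3244 (0.493%). Weak peaks lie close to the caller's cutoff, and the part of this in the counts was not tested. With all peaks of each list, the adult and the embryonic shares lay close to each other in all 10 classes, and with equal lengths the adult share was above the embryonic one in 9 of 10 classes, class 9 being the exception (1.22% against 1.48%).

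**Figure D2:**
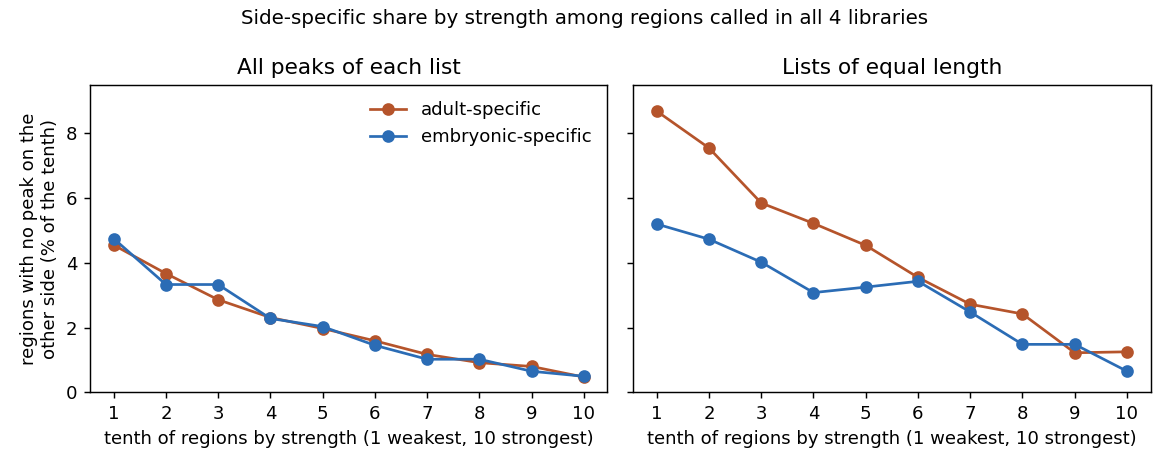
Share of regions with no peak on the other side (y axis, % of the class) in 10 equal classes of the regions called in all 4 libraries of a side, ordered by strength (x axis, 1 weakest), with all peaks (left) and lists of equal length (right). With all peaks the adult share goes from 4.55% in class 1 to 0.468% in class 10, and with equal lengths from 8.69% to 1.25%.

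The 12 strongest adult-specific regions were found on 10 autosomes. All 12 stayed adult-specific with equal lists by score, as that cut keeps strong peaks by construction. With equal lists by fold 5 did. Only 2 did when each peak was replaced by 100 bp either side of its summit, against 80.0% of all 1909. Those 2 were the regions given below on chromosome 9 and on chromosome 2 from 130459775. The first-ranked region was lost under both settings. Neither setting could bring an embryonic peak to it, so it was lost through its adult peaks. The first was chr12:58649136-58652359 (mm9, 3224 bp), whose largest peak held 176 and 230 tags in the ISC replicates and 288 and 344 in the enterocyte replicates. Scaled to 1000000 tags of the library (RPM), these were 5.43 and 7.32 in ISC and 6.64 and 8.79 in enterocytes, so the groups overlapped. The nearest embryonic peak lay 7024 bp away. This region closed a group of 5 adult-specific regions within 106 kb, described further on.

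The second region, chr13:55926137-55928596 (2460 bp), held 179 and 245 tags in the ISC replicates and 245 and 247 in the enterocyte replicates. Scaled, these were 5.52 and 7.79 RPM in ISC and 5.65 and 6.31 in enterocytes, so the groups overlapped. An embryonic peak lay 1776 bp from it. The third, chr3:86349869-86352577 (2709 bp), reached the highest RPM of the 12 in a single library, 9.10 in ISC replicate 2, and 6.32, 7.06 and 7.69 in ISC replicate 1 and the enterocyte replicates. Of the 12 regions within 50 kb of it, 4 were called in all adult libraries, of which 2 were adult-specific and none was called in all 8 libraries. These first 3 regions held over 5 RPM in every adult library, and 8 of the other 9 stayed below 5 in each.

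The exception was chr7:137403658-137406955, at 3298 bp the longest of the 12. Its ISC replicates held 84 and 134 tags and its enterocyte replicates 278 and 302, that is 2.59 and 4.26 against 6.41 and 7.72 RPM. Both enterocyte libraries were above both ISC libraries here, at 1 of the 12 regions, and both ISC libraries were above both enterocyte libraries at 2, on chromosomes 10 and 5. Over all regions called in the 4 adult libraries, enterocytes were higher without overlap at 21.9% and ISC at 8.75%.

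Ranks 4 to 6 were chr8:107791338-107793220 with 110 to 158 tags, chr2:129024986-129026530 with 119 to 167 and chr9:77962816-77963923 with 73 to 102. The chromosome 9 region had even levels, 2.25 and 2.51 RPM in ISC and 2.19 and 2.61 in enterocytes, and folds over local background of 8.16 to 9.86 by the authors' values. The others were chr16:45407903-45409368 (75 to 122 tags), chr2:130459775-130461269 (55 to 127), chr10:79380793-79381901 (76 to 94), chr5:122295812-122296955 (76 to 97) and chr10:127100979-127102253 (82 to 124). The region on chromosome 2 from 130459775 had an embryonic peak 300 bp away, and for the other 11 of the 12 the nearest was 1678 to 7024 bp away. ISC replicate 1 was the lowest of the 4 adult libraries at 8 of the 12 regions.

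The strongest embryonic-specific region, chr1:167121158-167122277 (1120 bp), held 104 tags in each E12.5 replicate and 112 and 66 in the E14.5 replicates. These were 1.88 and 1.88 RPM at E12.5 and 3.24 and 1.89 at E14.5, with E14.5 replicate 1 apart from the other 3. An adult peak lay 335 bp from it. The second, chr15:84718197-84719530 (1334 bp), held 87 and 87 tags at E12.5 and 130 and 53 at E14.5, or 1.58, 1.57, 3.76 and 1.52 RPM. An adult peak lay 75 bp from it, the shortest such distance among the 24 regions ranked here.

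Ranks 3 to 6 were chr9:107472566-107473506 (47 to 78 tags), chr7:107332159-107333247 (39 to 94), chr6:21960056-21961123 (86 to 112) and chr16:33766285-33767453 (72 to 119). Next came chr6:94601276-94601973, with 79 and 50 tags at E12.5 and 62 and 72 at E14.5, in a stretch with few adult peaks. It was followed by chr9:66001415-66002439 (44 to 101 tags), chr5:115935340-115936727 (50 to 109), chr7:134415776-134416576 (64 to 70), chr11:58195312-58196657 (52 to 97) and chr12:8865113-8865783 (43 to 52). The region on chromosome 7 from 134415776 was the most even in unscaled tags, with 68 and 64 at E12.5 and 68 and 70 at E14.5. Scaled, these were 1.23 and 1.15 RPM at E12.5 and 1.97 and 2.01 at E14.5, so E14.5 was higher without overlap.

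The level in these 12 regions spanned 0.866 to 3.76 RPM, and that in the 12 adult ones 1.70 to 9.10. These spans overlap and come from libraries that differ in depth and in the share of tags in peaks. With other settings, 4 of these 12 stayed embryonic-specific with equal lists by fold, 8 with peaks merged within 500 bp, 5 with no adult peak within 1 kb and 10 with summit intervals. E14.5 replicate 1 was the highest embryonic library at 9 of the 12. Both E14.5 libraries were above both E12.5 libraries at 6 of the 12 and the reverse at none, while over all regions called in the 4 embryonic libraries these shares were 56.7% and 2.12%.

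**Figure D3:**
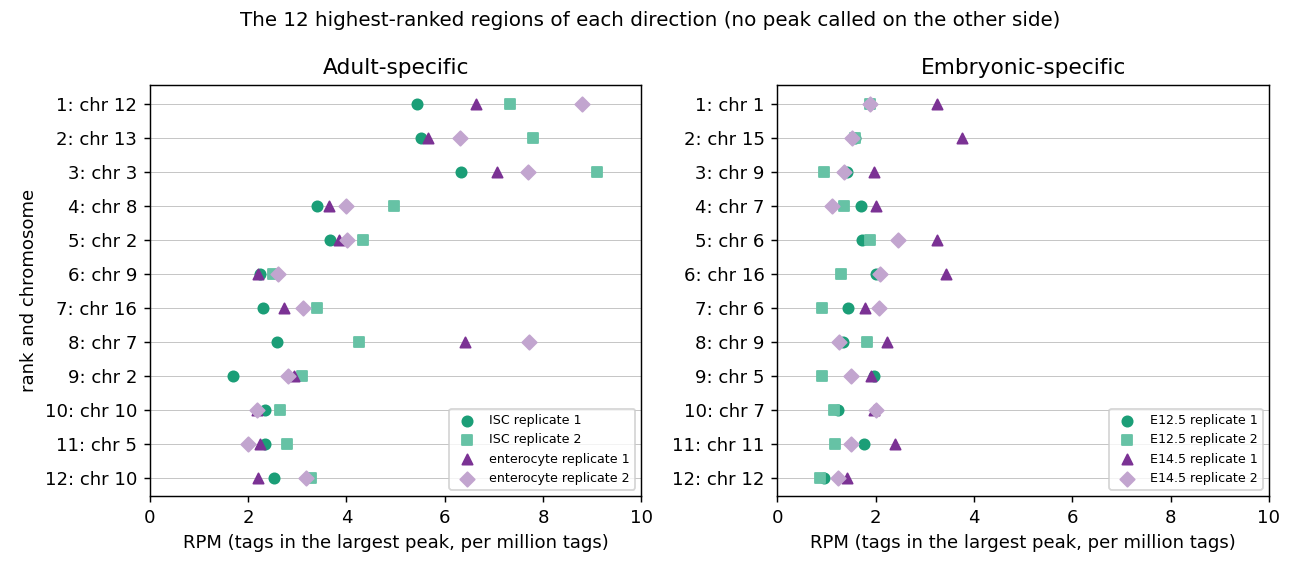
RPM, the tags in the largest peak scaled to 1000000 tags of the library (x axis), for the 12 highest-ranked adult-specific (left) and embryonic-specific (right) regions (y axis, rank and chromosome), 1 point per library of the side. The first 3 adult regions lie between 5.43 and 9.10, and no embryonic region exceeds 3.76.

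Within the adult side, the level of adult-specific regions in stem cells and enterocytes differed by about the spread between replicates. The median over the 1909 regions was 0.956 and 1.21 RPM in ISC replicates 1 and 2 and 1.22 and 1.23 in enterocyte replicates 1 and 2. On the log2 scale the mean of ISC was -0.19 relative to enterocytes, with an SD between replicates of 0.17, and ISC replicate 1 alone was low. Without it the difference was -0.04, and without ISC replicate 2 it was -0.30. Both enterocyte libraries were above both ISC libraries at 527 regions (27.6%) and below at 149 (7.81%), near the 21.9% and 8.75% of all regions called throughout the adult side. An exact permutation test of 2 against 2 libraries cannot go below p = 0.333.

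On the embryonic side, the stages compared as follows. The median over the 660 regions was 0.869 and 0.776 RPM in the E12.5 replicates and 1.10 and 0.803 in the E14.5 replicates, a log2 difference of -0.19 for E12.5 relative to E14.5 with an SD of 0.24. Without E14.5 replicate 1 the difference was 0.09, and it was -0.67 for the embryonic-specific regions of equal lists by score, so the value depended on list length and on that library. In the 31772 other regions called throughout the embryonic side the medians were 1.01 and 0.884 at E12.5 and 1.74 and 1.23 at E14.5. Both E14.5 libraries exceeded both E12.5 libraries at 226 embryonic-specific regions (34.2%), against 56.7% of all regions called in the 4 libraries, and E12.5 exceeded E14.5 at 57 (8.64%), against 2.12%. The rule used presence in all 4 embryonic libraries and absence from the adult ones, not the order of the stages. The regions compared were not matched for strength, with a median rank of 22.6 for embryonic-specific regions and 43.5 for the others. No test of this contrast was made.

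Side-specific regions seldom lay far from the other side's peaks, but no baseline distance was taken for other regions or positions. The lists held 84801 to 336963 autosomal peaks each, so closeness is not shown to be particular to these regions. The median distance to the nearest peak of the other side was 1340 bp for adult-specific and 1270 bp for embryonic-specific regions. Within 1 kb lay 39.5% (755) and 39.8% (263), and 10 kb or more separated 39 adult-specific (2.04%) and 11 embryonic-specific regions (1.67%). None of these 50 distant regions was in the strongest 25% of the lists of its side. Of all members, only 6.29% of the adult-specific and 4.24% of the embryonic-specific regions were. The count among so few distant regions therefore does not set them apart.

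**Figure D4:**
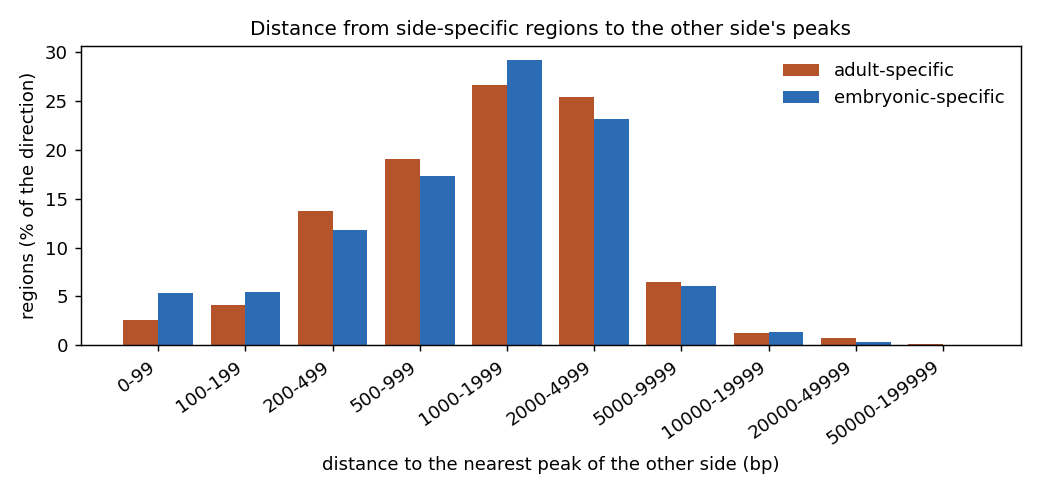
Share of adult-specific and embryonic-specific regions (y axis, % of the direction) by the distance to the nearest peak of the other side (x axis, bp, classes of unequal width). The class from 1000 to under 2000 bp is the fullest in both directions, with 26.7% of the adult and 29.2% of the embryonic regions.

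The strongest adult-specific regions that stood 10 kb or more from an embryonic peak were of middling strength. They were chr3:150389610-150390536, with 29 to 70 tags, chr7:68694030-68694888, with 32 to 51 tags, chr19:6999850-7001079, with 27 to 83, chr14:44084943-44085985, with 24 to 83, and chr7:47357656-47358490, with 25 to 53. Except on chromosome 19, where 23 other regions lay within 50 kb, their surroundings held few peaks of any library, 2 to 7 regions within 50 kb. Adult-specific regions at 50 kb or more numbered 3. A pair lay on chromosome 14, at 44084943 to 44085985 and 44039987 to 44040817, 185080 and 156315 bp from an embryonic peak, and the third was chr1:118411351-118411903, at 52194 bp. The second of the pair held 22 and 51 tags in ISC and 53 in each enterocyte replicate.

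The 5 corresponding embryonic-specific regions were chr13:63257283-63258023 with 28 to 52 tags, chr2:110876033-110876689 with 18 to 40, chr1:61276939-61277810 with 16 to 69, chr4:85367107-85367597 with 17 to 37 and chr6:94629503-94630224 with 23 to 40. The last was the most isolated embryonic-specific region of all, with the nearest adult peak 21969 bp away. The chromosome 1 region held 69 and 59 tags at E12.5 and 21 and 16 at E14.5. Scaled, these were 1.25 and 1.06 against 0.608 and 0.459 RPM, so the E12.5 values were higher. This region was lost when the embryonic lists were limited to E14.5, and also with summit intervals and with presence over 50%. The nearest adult peak was 13090 bp away, so the loss means that the peaks of the E14.5 replicates did not overlap each other. The levels therefore come from different parts of the region and do not compare the stages at 1 stretch.

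Side-specific regions were mostly single. Of the adult-specific regions, 341 (17.9%) lay within 50 kb of another, in 152 groups of which 29 had 3 or more members. Of the embryonic-specific regions, 42 (6.36%) did, in 20 groups of which 2 had 3 members. The more numerous direction gives more neighbours by number alone, so these shares do not compare the directions.

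The largest adult groups had 5 members each, and the 3 named here were all on chromosome 12. One ran from 12715367 to 12809002 (93.6 kb), where 5 of the 11 regions called in all adult libraries were adult-specific, with 35 to 146 tags. Its longest member, chr12:12731357-12733112, had 81 and 93 unscaled tags for ISC and 127 and 146 for enterocytes. The enterocyte libraries were deeper, with 43343543 and 39142426 tags in all, against 32423813 and 31438314 for ISC. Unscaled tags therefore do not order the groups by level. Another ran from 58546379 to 58652359 and ended in the region ranked first, and 5 of its 10 regions called in all adult libraries were adult-specific. Its member chr12:58595741-58597042 had 33 and 50 unscaled tags for ISC and 117 and 102 for enterocytes. The last ran from 3810878 to 3924965 (114 kb), with weaker peaks of 21 to 58 tags and 5 of 12. Groups were picked for their number of members and run from first to last member, so these shares are high by construction. Among all regions called throughout the adult side the share was 2.03%. Embryonic peaks were present between the members in all 3, 44, 61 and 66 of them counted over the 4 lists, so no group was a stretch without embryonic peaks.

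The embryonic groups were smaller. At chr4:148417866-148456263 all 3 regions called throughout the embryonic side were embryonic-specific, with 42 to 121 tags, among 18 adult peaks over the 4 adult lists. At chr6:94601276-94643988 (42.7 kb) the 3 regions called in every embryonic library were embryonic-specific too, and only 2 adult peaks lay within the stretch. They held 79 and 50, 32 and 40, and 45 and 28 tags at E12.5. At E14.5 they held 62 and 72, 32 and 23, and 44 and 26. The other named group, a pair at chr16:33766285-33799920, held 35 to 119 tags. There, 2 of the 3 regions called throughout the embryonic side were embryonic-specific, and 7 adult peaks lay within the stretch. These shares too are high by the way groups were picked, against 2.04% of all regions called throughout the embryonic side.

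Both directions were spread over all autosomes. The adult-specific share of regions called in all adult libraries ranged from 1.52% on chromosome 15 (60 of 3956) to 2.58% on chromosome 11 (141 of 5472). The embryonic-specific share ranged from 1.61% on chromosome 15 (23 of 1429) to 2.61% on chromosome 11 (52 of 1992). Chromosome 11 was thus the highest and chromosome 15 the lowest in both directions. Chromosome 13 came second on the adult side, with 2.48% (119 of 4793).

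**Figure D5:**
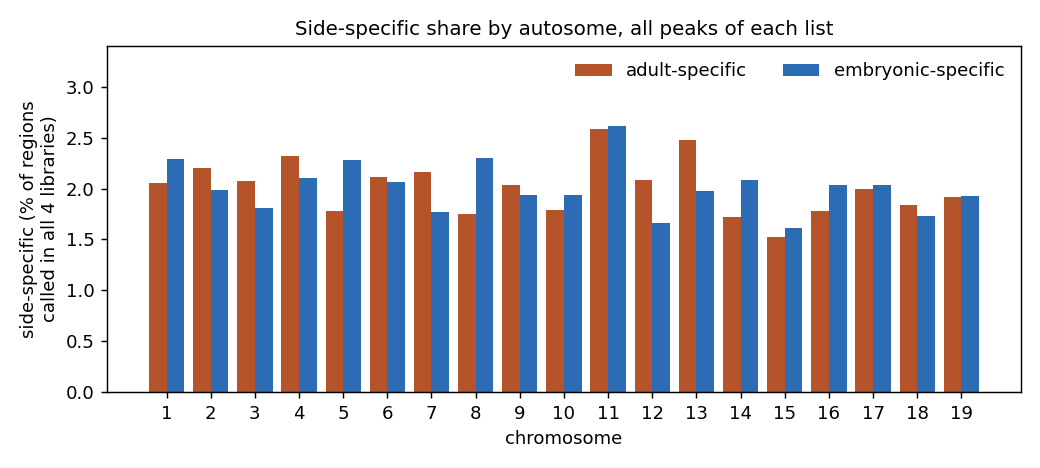
Share of side-specific regions (y axis, % of the regions called in all 4 libraries of the side) on each of the 19 autosomes (x axis). The bars lie between 1.52% and 2.61%, highest on chromosome 11 and lowest on chromosome 15 in both directions.

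Lists of equal length gave largely different regions. Of the 1441 adult-specific regions in equal lists, 256 (17.8%) overlapped an adult-specific region of the full lists, which is 13.4% of the 1909. Most of the others, 1183 (82.1% of the 1441), overlapped an embryonic peak that was present in the full lists and ranked too low for the equal ones. Such a peak was found in E14.5 replicate 1 for 1021 and in E14.5 replicate 2 for 985, at a median score percentile of 52.8 in each, where the equal lists began at percentiles of 73.3 and 74.9. Of the 504 embryonic-specific regions in equal lists, 110 (21.8%) overlapped one of the full lists, 16.7% of the 660, and 394 (78.2%) overlapped an adult peak of the full lists. By these counts, equal lengths mostly selected regions with a higher-ranked peak on one side and a lower-ranked one on the other, and full lists a peak against none.

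The strong members of the full lists were found again with equal lengths, but not all strong members of the equal lists were side-specific in the full ones. All 120 adult-specific and all 28 embryonic-specific regions in the strongest 25% of every list of their side were side-specific with equal lengths as well, as the cut keeps strong peaks by construction. Of the 5 strongest regions of the equal lists in each direction, 3 overlapped a peak of the other side in the full lists and were not side-specific there. The highest-ranked adult region in equal lists was chr4:41444264-41447180, with 240 to 392 tags in the adult libraries. In the full lists it had a peak of 34 tags in E14.5 replicate 2 and in no other embryonic library. The adult libraries held 7.40 to 10.0 RPM and the embryonic one 0.975. Among regions with a single embryonic peak this one ranked first, just outside the rule.

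The next outside the rule were chr5:120116863-120119587, with 154 to 281 tags in adults and 24 in E14.5 replicate 1, and chr11:70028075-70029760, with 82 to 166 tags in adults and 35 in E14.5 replicate 2. The first of them was also among the 5 strongest of the equal lists. For comparison, the last of the 12 members named above, chr10:127100979-127102253, held 82 to 124 tags. On the embryonic side the regions just outside were chr7:135315735-135317292, chr5:135486238-135487726 and chr7:141271496-141272290, with 61 to 75, 44 to 68 and 37 to 60 tags, and each had a single adult peak, of 36, 25 and 19 tags, in ISC replicate 2.

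The equal lists also brought in chr8:107781992-107784097, with 99 to 201 tags in the adult libraries, less than 10 kb from the adult-specific chr8:107791338-107793220. It overlapped an embryonic peak of the full lists. On the embryonic side they brought in chr11:77985725-77986868, with 120 and 91 tags at E12.5 and 93 and 61 at E14.5, and chr6:136573266-136574763, with 1.83 and 2.15 RPM at E12.5 and 3.62 and 1.49 at E14.5. Both overlapped an adult peak of the full lists.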

How the data were processed

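MBD pull-downs of 8 libraries (4 groups, 2 replicates each) were analysed, with a peak list for each. DNA, 1 µg a replicate, was sheared to 150 to 250 bp and pulled down with the MethylMiner kit, per the labels' protocols. The tools named are Bowtie 1.1.2, SAMtools 1.2 and bcl2fastq 1.8.4, with build mm9, per the submitters' processing notes. Per the file headers, MACS 1.4.2 called each library alone, without a control, at a p cutoff of 1e-05. Tags per peak are unscaled counts as deposited. The score (minus 10 times log10 of the caller's p-value) and the fold, a ratio to local background, are the authors' values per the file headers and only ranked or described peaks. Start and end positions are mm9 as deposited.

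Peaks were merged and counted with Python 3.11.15 and pandas 2.3.3. Tags of a region are those of its largest peak in a library, divided by the library's total tags. Distances count the bases between a region and a peak. No test across regions was made, since a library without a peak has no value. Permutation tests used SciPy 1.17.1. On simulated lists, 200 of 200 planted regions were recovered in each direction. The simulated lists had no missing peaks and no cutoff, so this checks the code only.

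Named regions were the 12 strongest per direction, the 5 strongest at 10 kb or more from the other side, the 3 largest groups within 50 kb, 3 just outside the rule and the 5 strongest in equal lists, with chromosome 18 left out. The members, lists and rules were chosen with earlier results of these data known. Gene lists and marker genes were planned and not analysed here, because the gene and promoter tables at hand are of GRCm38.p6 and positions were not converted between builds. Alternatives were equal lists by score or fold, the top 50% of lists, wider merging, presence over 50% of a region, summit intervals, a 1 kb distance, all chromosomes, single groups per side and leaving out each library.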

Additional observations from a re-analysis of the deposited data

Results flagged for a closer look

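In groups of 4 libraries, 44 values were searched for a library far from the other 3, and 3 stood out. The values share libraries and are not independent, so 3 of 44 is not shown to be more than chance would give. The median level of adult-specific regions was low in ISC replicate 1, at 0.956 RPM against 1.21 to 1.23 in the other adult libraries. The embryonic-specific region chr1:167121158-167122277 was high in E14.5 replicate 1, at 3.24 RPM against 1.88 to 1.89. The embryonic-specific region chr15:84718197-84719530 was high in the same library, at 3.76 against 1.52 to 1.58.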

How the results depend on the processing

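Leaving out libraries or splitting a side loosens the rule in both directions. Fewer lists must then hold a peak in one direction, and fewer must lack one in the other. Higher counts in either direction are thus by construction. Adult-specific regions numbered 1194 with equal lists by fold, 5970 with presence over 50% of the region, 1154 with no embryonic peak within 1 kb, 33960 against E12.5 alone and 2272 against E14.5 alone, and 8377 and 5033 with ISC or enterocytes alone as adults. Embryonic-specific regions numbered 332 with equal lists by fold, 313 in the top 50% of lists, 278 with presence over 50%, 397 at more than 1 kb, 21025 with E14.5 alone, 1875 with E12.5 alone, 1108 with ISC alone and 1683 with enterocytes alone. Without each library in turn there were 2050 to 5338 adult-specific regions, highest without E14.5 replicate 1, and 758 to 2396 embryonic-specific regions, highest without E12.5 replicate 2. As a share of all side-specific regions, adult ones made up 74.3% as reported and 72.6% to 80.4% in 7 alternatives that kept all groups. It was 95.6% with presence over 50%, 94.8% with E12.5 alone and 88.3% with ISC alone, and reversed to 9.75% with E14.5 alone. Over the fits that left out 1 library it ran from 46.1% (E12.5 replicate 2 left out) to 85.7% (E14.5 replicate 1 left out). With equal lists by score it was 74.1%. The cause of the larger number of adult regions was not tested.

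The log2 difference of E12.5 to E14.5 in embryonic-specific regions was -0.67 with equal lists by score, -0.49 by fold and -0.48 with presence over 50%, and -0.34 to 0.09 without single libraries, reversed without E14.5 replicate 1. That of ISC to enterocytes kept its sign in every alternative, from -0.30 to -0.04. The causes were not tested. Of the 1909 and 660 regions, 50 (2.62%) and 8 (1.21%) stayed side-specific under all 7 alternatives that kept every library and the autosomes. These included chr9:77962816-77963923, chr6:94601276-94601973 and chr7:134415776-134416576 of the named regions. With 100 bp either side of summits, 6 of the 17 named adult and 13 of the 17 named embryonic regions remained side-specific, and with equal lists by score 12 and 12. No paired analysis was possible because the counts come from no test and replicate numbers link no animals.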
